A study of Mus musculus with 2 samples.

Results

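GATA4 occupied sites (OS) were examined at 44 genes of amino acid metabolism and the urea cycle, out of 22380 protein-coding genes of the annotation. The genes were listed by name, and an OS was given to a gene when the midpoint of the peak lay inside the gene or at most 10 kb outside it. Chromatin came from whole liver of mice on a mixed C57BL/6 x Sv129 background and was precipitated with the goat antibody GATA4 C-20, and input DNA of liver from mice of the same background, with no antibody, was the control in peak calling. The labels give an age of 2 to 3 months and name no treatment or mutation in either sample, while the study's methods give a slightly later age range for the ChIP livers. By the study's methods the ChIP covers 2 biological replicates, each of whole liver from 2 mice, which are merged in the peak lists. No value below therefore has a replicate error, and the input enters only through the peak calls. The main list held the 4409 OS called by SPP that met a MACS2 peak (common OS), and the full lists of 4811 SPP peaks and 5867 MACS2 peaks served as support. Every peak had the same score, so the number of a peak in its list is given in place of its strength, and what this number follows is not said in the files.

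The liver disposes of the nitrogen of amino acids through the urea cycle, in which Cps1, Otc, Ass1, Asl and Arg1 act in turn. Nags makes the activator of Cps1, and Slc25a15 and Slc25a13 carry ornithine and aspartate across the inner mitochondrial membrane. Urea is made mainly in hepatocytes near the portal tracts, whereas ammonia that escapes is captured as glutamine by Glul in hepatocytes around the central vein. GATA4 is a zinc finger factor that recognises WGATAR, that is GATA with A or T before it and A or G after it, on either strand.

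The sequences around the GATA motif are shown for the OS nearest to start sites and for the first OS of each role group in the list. These sequences took no part in giving an OS to a gene. They were read on the forward strand of mm9. Capitals mark WGATAR on either strand or, for Got1 and Psat1, where the OS held no WGATAR, the core with its fitting end (GATAA or GATAG).
Nags, OS 2155, chr11:102007626-102007655: aacattagtgctAGATAAgggggtggctaa
Slc25a15, OS 353, chr8:23505116-23505195: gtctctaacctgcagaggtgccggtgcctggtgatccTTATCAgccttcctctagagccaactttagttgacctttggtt
Got1, OS 22, chr19:43599136-43599215: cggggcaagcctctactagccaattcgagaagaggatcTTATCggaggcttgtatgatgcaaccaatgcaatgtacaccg
Kmo, OS 3657, chr1:177560633-177560712: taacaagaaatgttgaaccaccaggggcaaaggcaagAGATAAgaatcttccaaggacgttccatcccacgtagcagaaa
Sds, OS 3284, chr5:120918484-120918563: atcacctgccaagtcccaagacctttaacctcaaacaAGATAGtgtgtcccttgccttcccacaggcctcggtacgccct
Mat1a, OS 869, chr14:41915705-41915784: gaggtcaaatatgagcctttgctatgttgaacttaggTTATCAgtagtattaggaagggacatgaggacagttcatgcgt
Bhmt, OS 2985, chr13:94407698-94407727: aacgcgaagttaAGATAAgaaaaaaatact
Psat1, OS 4073, chr19:15999557-15999636: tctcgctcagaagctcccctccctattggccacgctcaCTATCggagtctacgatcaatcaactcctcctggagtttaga
Slc1a2, OS 2069, chr2:102585495-102585574: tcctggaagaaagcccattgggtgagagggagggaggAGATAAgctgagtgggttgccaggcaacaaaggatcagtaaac
Atf4, OS 2795, chr15:80079208-80079287: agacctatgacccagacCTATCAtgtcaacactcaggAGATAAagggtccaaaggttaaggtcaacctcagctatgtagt

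At least 1 common OS was present at 14 of the 44 genes (31.8%), beside 13.6% of all other protein-coding genes. The 14 genes were Ass1, Asl, Nags, Slc25a15, Slc25a13, Got1, Got2, Kmo, Sds, Mat1a, Bhmt, Psat1, Slc1a2 and Atf4. Nags, Slc25a15, Got1 and Slc1a2 had 2 common OS each (9.09% of members, beside 3.00% of the other genes with 2 or more), which gave 18 OS in all. The SPP list reached 16 members (36.4%, beside 14.5%) and the MACS2 list 17 members (38.6%, beside 17.3%). Inside the gene itself 9 members had a common OS (20.5%, beside 7.65%) and 9 had an SPP peak (beside 8.24%), and within 50 kb 23 members had a common OS (52.3%, beside 27.6%). A common OS within 1 kb of a start site was found at 4 members (9.09%, beside 3.42%). None of these differences was tested, because the lists come from 1 merged sample and genes are not replicates. The members were also chosen with earlier results of these data known, so no set test was run.

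Longer genes offer more room for an OS, so the count was also read by the length of the gene plus 10 kb on either side. The median of this window was 41.3 kb for members and 35.4 kb for other genes. In the shortest quartile of windows 2 of 4 members were occupied, beside 5.29% of other genes, and in the longest 4 of 11 (36.4%), beside 23.5%. The middle quartiles had 2 of 9 members (22.2%, beside 11.4%) and 6 of 20 members (beside 14.3%). Per length, the merged member windows held 7.52 common OS per Mb, those of all other protein-coding genes 2.53 and the whole genome 1.66.

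**Figure D1:**
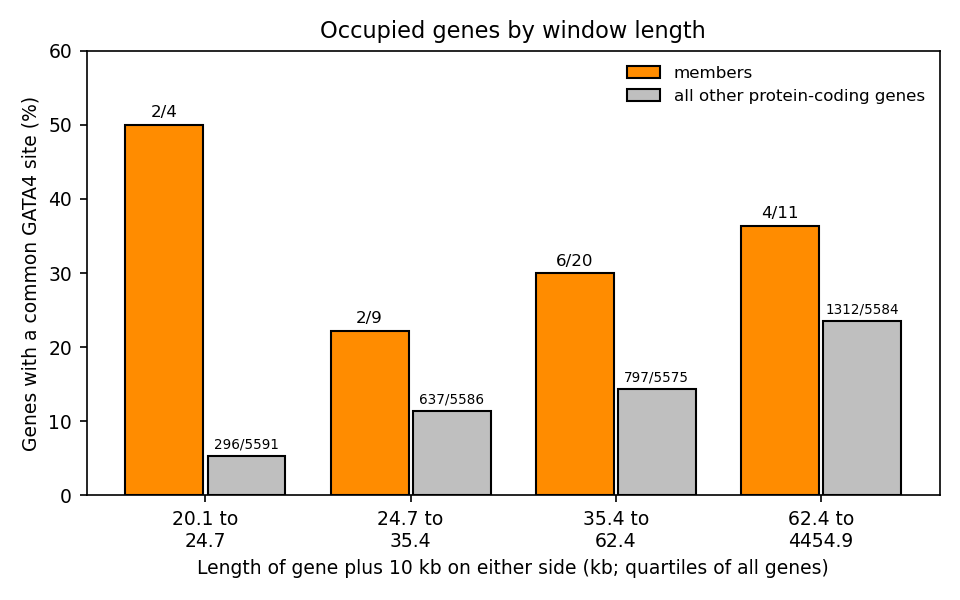
Share of genes with a common GATA4 OS (y axis, %) in quartiles of the length of the gene plus 10 kb on either side (x axis, kb), with orange bars for members, grey bars for all other protein-coding genes and the counts above each bar. The member bar is the higher of the pair in each quartile, with 2 of 4 members in the shortest and 4 of 11 in the longest.

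Whole liver holds several cell types, and few cells with an OS cannot be told apart from weak occupancy in many cells. Of the marker genes listed for each cell type, a common OS was present at 6 of 10 for hepatocytes. These were Alb, Ttr, Trf, Apoa2, Fgb and Hnf4a with 1 OS each, and not Apoa1, Serpina1a, Cyp2e1 or Pck1. For endothelial cells it was present at 7 of 10. These were Eng (4 OS), Stab2, Kdr and Tek (3 each), Pecam1 (2), Cdh5 and Clec4g (1 each), and not Lyve1, Tie1 or Emcn. The counts were 0 of 7 for Kupffer cells, 1 of 7 for stellate cells (Colec11) and 0 of 5 for cholangiocytes. All stand beside 13.6% of protein-coding genes other than the members. These counts concern occupied genes and not expression, and the part of each cell type in the OS of the members was not tested.

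The urea cycle group was occupied at 5 of 8 genes, beside 13.6% of other genes, and held 7 of the 18 OS, of which 3 had another gene (Hmcn2, Crcp or Tmem101) with a nearer start. The lowest list number in the group belonged to Slc25a15, the mitochondrial ornithine carrier, whose OS 353 (MACS2 number 685) spanned chr8:23505021-23505270 in intron 2, 3947 bp downstream of the start. Its 250 bp held TGATAG 49 bp to the left of the midpoint and TGATAA, shown above, 10 bp to the right. A further OS of Slc25a15, number 1960 at chr8:23511296-23511416, lay 2263 bp upstream of the start, with AGATAA 2 bp from its midpoint. No other protein-coding gene lay within 10 kb of either OS.

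Nags, which makes N-acetylglutamate, had OS 2155 at chr11:102007536-102007725, in intron 1 of its longest protein-coding transcript. It was centred 49 bp upstream of an annotated start and 804 bp downstream of the 5' end of the gene, and its AGATAA lay 10 bp from the midpoint. MACS2 gave this OS the number 1043. The other OS in the Nags window, number 2214 at chr11:102017619-102017769, lay 6903 bp beyond the end of Nags, in exon 1 of Tmem101 and 24 bp from the Tmem101 start. It held no WGATAR, and its core with flanks was TGATAC.

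The enzymes Ass1 and Asl, which turn citrulline into arginine, had their OS outside the genes. For Ass1, OS 3364 (chr2:31316479-31316798) lay 9088 bp upstream with TGATAG 3 bp from the midpoint, and the start of Hmcn2 was nearer, at 6411 bp. For Asl, OS 2719 (chr5:130503136-130503222) lay 2177 bp upstream, and the start of Crcp was nearer, at 1981 bp. At 87 bp the Asl OS was the narrowest of the 18, and its core with flanks was AGATAT. MACS2 alone called a further Asl peak, number 5574, over 908 bp in exon 2 and 6 bp from an annotated start. Slc25a13, the aspartate and glutamate carrier citrin, had OS 4153 (chr6:6135743-6136062) in intron 2, with AGATAG and TGATAA. This OS lay 31270 bp from the 5' end of the gene and 6702 bp from the nearest annotated start.

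Cps1, Otc and Arg1, which catalyse the entry step, the formation of citrulline and the release of urea, had no common OS by the rule. At Cps1 (chr1:67169600-67277833) no list had a peak within 10 kb, and the nearest common OS, number 872, lay 18953 bp upstream with the Cps1 start as its nearest. Arg1 likewise had no peak in any list, and its nearest common OS was 364 kb away. Otc had none in the common list, but MACS2 called 2 peaks there. The first, number 4294 at chrX:9829161-9829561, was centred 70 bp upstream of the Otc start and held AGATAG and TGATAA, and the other, number 4932, lay in intron 1 with TGATAA. The AGATAG of the first is shown here as the motif at the Otc start, and SPP called neither peak.
Otc, MACS2 peak 4294, chrX:9829383-9829412: ccctgccctactCTATCTctaacaaggctg

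**Figure D2:**
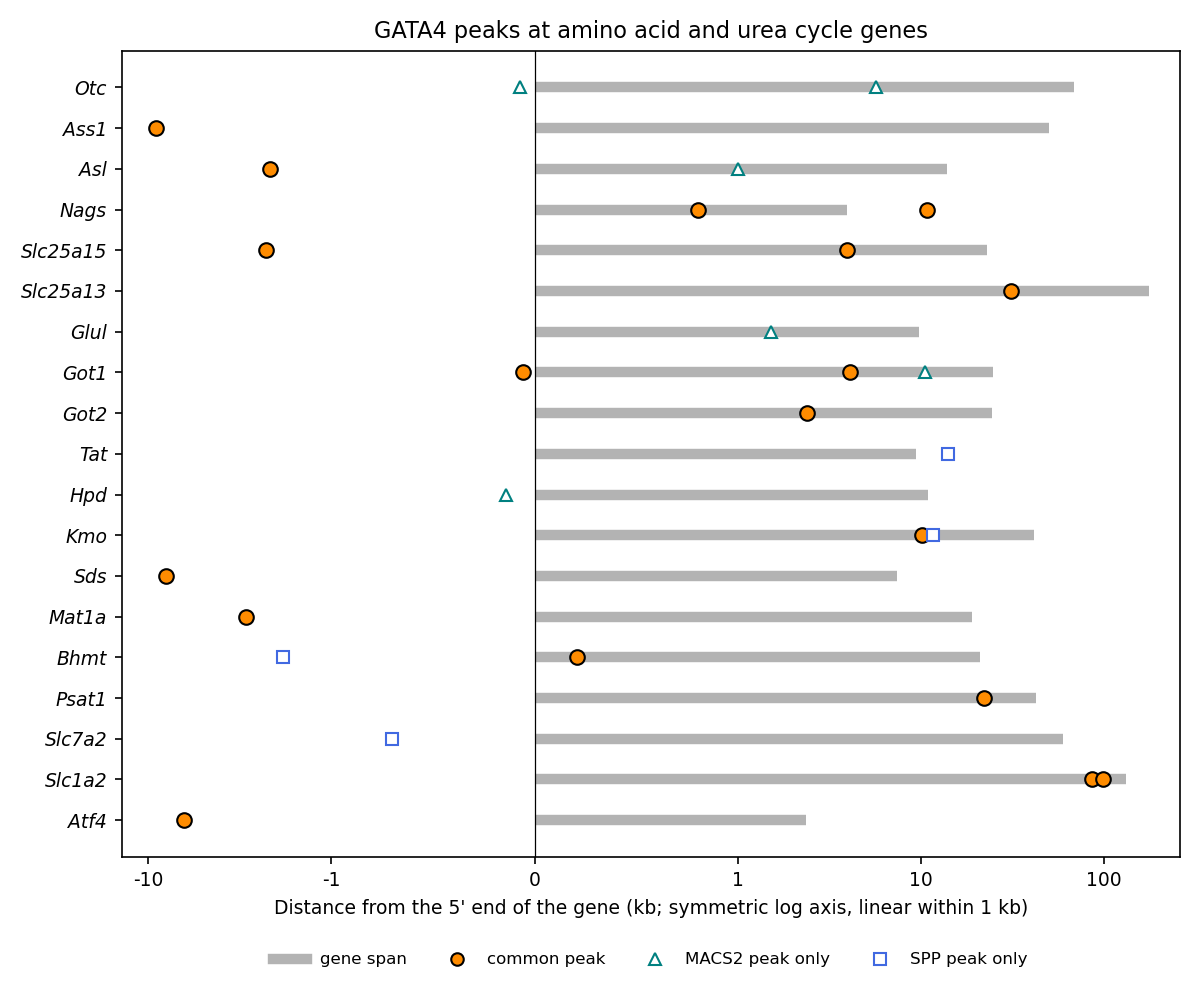
Peak midpoints at the members with a peak in any list (rows), by distance from the 5' end of the gene in kb (symmetric log axis, linear within 1 kb, upstream to the left). Grey bars are gene spans, orange circles common OS, open triangles peaks of MACS2 alone and open squares peaks of SPP alone; Otc, Glul, Tat, Hpd and Slc7a2 carry open symbols and no circle, and the Got1 circle nearest to a 5' end sits 57 bp upstream.

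Of the 4 aminotransferases, 2 were occupied, beside 13.6% of other genes. These were the aspartate enzymes Got1 (cytosolic) and Got2 (mitochondrial), which take part in the malate-aspartate shuttle. The alanine enzymes Gpt and Gpt2 were not occupied. Got1 held both the first and the last member OS by list number. OS 22 (MACS2 number 25) at chr19:43599000-43599304 was centred 57 bp upstream of the start, held no WGATAR and had CGATAA, part of which is shown above, 25 bp from the midpoint. The MACS2 peak over it was 1472 bp wide, against 305 bp in the common list. OS 4325 at chr19:43594845-43595164 lay in intron 1 with TGATAA. MACS2 alone called a further Got1 peak, number 5329 (chr19:43588360-43588677), in intron 2 with TGATAA. Got2 had OS 690 (chr8:98409954-98410164) in intron 1, 2388 bp from the start, with TGATAA and AGATAA. The nearest common OS lay 14.0 kb from Gpt2, with the Gpt2 start as its nearest, and 204 kb from Gpt.

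Glul, Gls2, Glud1 and Rhbg, which handle glutamine, glutamate and ammonia, had no common OS within 10 kb, beside 13.6% of other genes with one. MACS2 alone placed peak 2890 (chr1:155748233-155748944) in intron 1 of Glul, 343 bp from an annotated start, with AGATAG. The nearest common OS were 52.8 kb from Glul, 135 kb from Gls2, 35.3 kb from Glud1 and 101 kb from Rhbg.

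In methionine metabolism Mat1a and Bhmt were occupied, out of 6 genes (33.3%, beside 13.6% of other genes). Mat1a, which makes S-adenosylmethionine in adult liver, had OS 869 (chr14:41915647-41915814) 2939 bp upstream of its start, with TGATAA 14 bp from the midpoint and no other gene within 10 kb. Bhmt, which remethylates homocysteine with betaine, had OS 2985 (chr13:94407549-94407868) in exon 1, 188 bp upstream of one annotated start and 207 bp downstream of the 5' end of the gene, with AGATAA 4 bp from the midpoint. SPP alone called peak 4780 a further 1842 bp upstream of Bhmt. Gnmt, Cbs, Cth and Ahcy had no peak in any list, and their nearest common OS were 104 kb (Gnmt), 204 kb (Ahcy), 272 kb (Cbs) and 4058 kb (Cth) away.

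Breakdown of the aromatic amino acids had 1 common OS in 8 genes, beside 13.6% of other genes with at least 1. It was OS 3657 (chr1:177560535-177560854) at Kmo, the kynurenine monooxygenase, within the gene span but outside the longest protein-coding transcript, 1432 bp upstream of an annotated start and with AGATAA 22 bp from the midpoint. SPP alone called peak 4649 at Kmo, 70 bp from an annotated start. Tat, the first enzyme of tyrosine breakdown, had peak 4163 of SPP alone, which lay downstream of the gene and 13979 bp from its start. Hpd, the enzyme after Tat, had peak 4078 of MACS2 alone (chr5:123632666-123633088), centred 143 bp upstream of its start with the AGATAA shown here.
Hpd, MACS2 peak 4078, chr5:123632782-123632861: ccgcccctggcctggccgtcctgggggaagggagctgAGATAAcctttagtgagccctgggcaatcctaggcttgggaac
Hgd, Fah, Tdo2, Haao and Kynu had no peak in any list, with nearest common OS at 12.6 kb, 742 kb, 13.6 kb, 270 kb and 1271 kb.

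For serine, glyoxylate, proline and ornithine, 1 of 5 genes met the rule, beside 13.6% of other genes. Sds, serine dehydratase, had OS 3284 (chr5:120918461-120918613) 8003 bp upstream of its start, but this OS lay in intron 1 of the paralogue Sdsl and 1168 bp upstream of a Sdsl start. It held TGATAG and the AGATAG shown above. Agxt, Prodh2, Aldh4a1 and Oat had no peak in any list, with nearest common OS at 154 kb, 120 kb, 66.7 kb and 122 kb.

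Among the genes of synthesis and their regulator, Psat1 and Atf4 were occupied, which is 2 of 4, beside 13.6% of other genes. Psat1, the phosphoserine aminotransferase, had OS 4073 (chr19:15999480-15999799) in intron 1 of the longest transcript, 91 bp upstream of an internal annotated start and 22187 bp from the 5' end. It held no WGATAR but CGATAG, and the MACS2 peak over it was 1050 bp wide. Atf4, a transcription factor of the response to amino acid shortage, had OS 2795 (chr15:80079191-80079300) 6368 bp upstream, in intron 5 of Smcr7l, with TGATAG 18 bp and AGATAA 2 bp from the midpoint. Asns and Phgdh had no peak in any list, and their nearest common OS were 13.6 kb and 34.7 kb away.

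Of the membrane transporters, 1 of 5 had a common OS, beside 13.6% of other genes. It was Slc1a2, a glutamate transporter of pericentral hepatocytes, with both of its common OS deep in the gene. OS 2069 (chr2:102585441-102585597) lay in intron 5, 86703 bp from the 5' end and 10085 bp from the nearest annotated start. OS 4049 (chr2:102597624-102597943) lay in intron 7, 98968 bp from the 5' end but 1720 bp from an annotated start. Each held 2 WGATAR. Slc7a2, an arginine transporter, had peak 3470 of SPP alone (chr8:41946886-41947205), centred 704 bp upstream of its start with AGATAG and the TGATAA shown here.
Slc7a2, SPP peak 3470, chr8:41947026-41947105: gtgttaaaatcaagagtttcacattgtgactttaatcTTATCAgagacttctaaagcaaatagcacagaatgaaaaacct
Slc38a2, Slc38a3 and Slc38a4 had no peak in any list, with nearest common OS at 52.2 kb, 63.0 kb and 11.2 kb. By textbook zonation, a common OS was present at 3 of 7 periportal members (Ass1, Asl and Sds, but not Cps1, Otc, Arg1 or Gls2) and at 1 of 4 pericentral members (Slc1a2, but not Glul, Oat or Rhbg), beside 13.6% of other genes. The counts are too small to read a contrast between the zones, and none was tested.

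**Figure D3:**
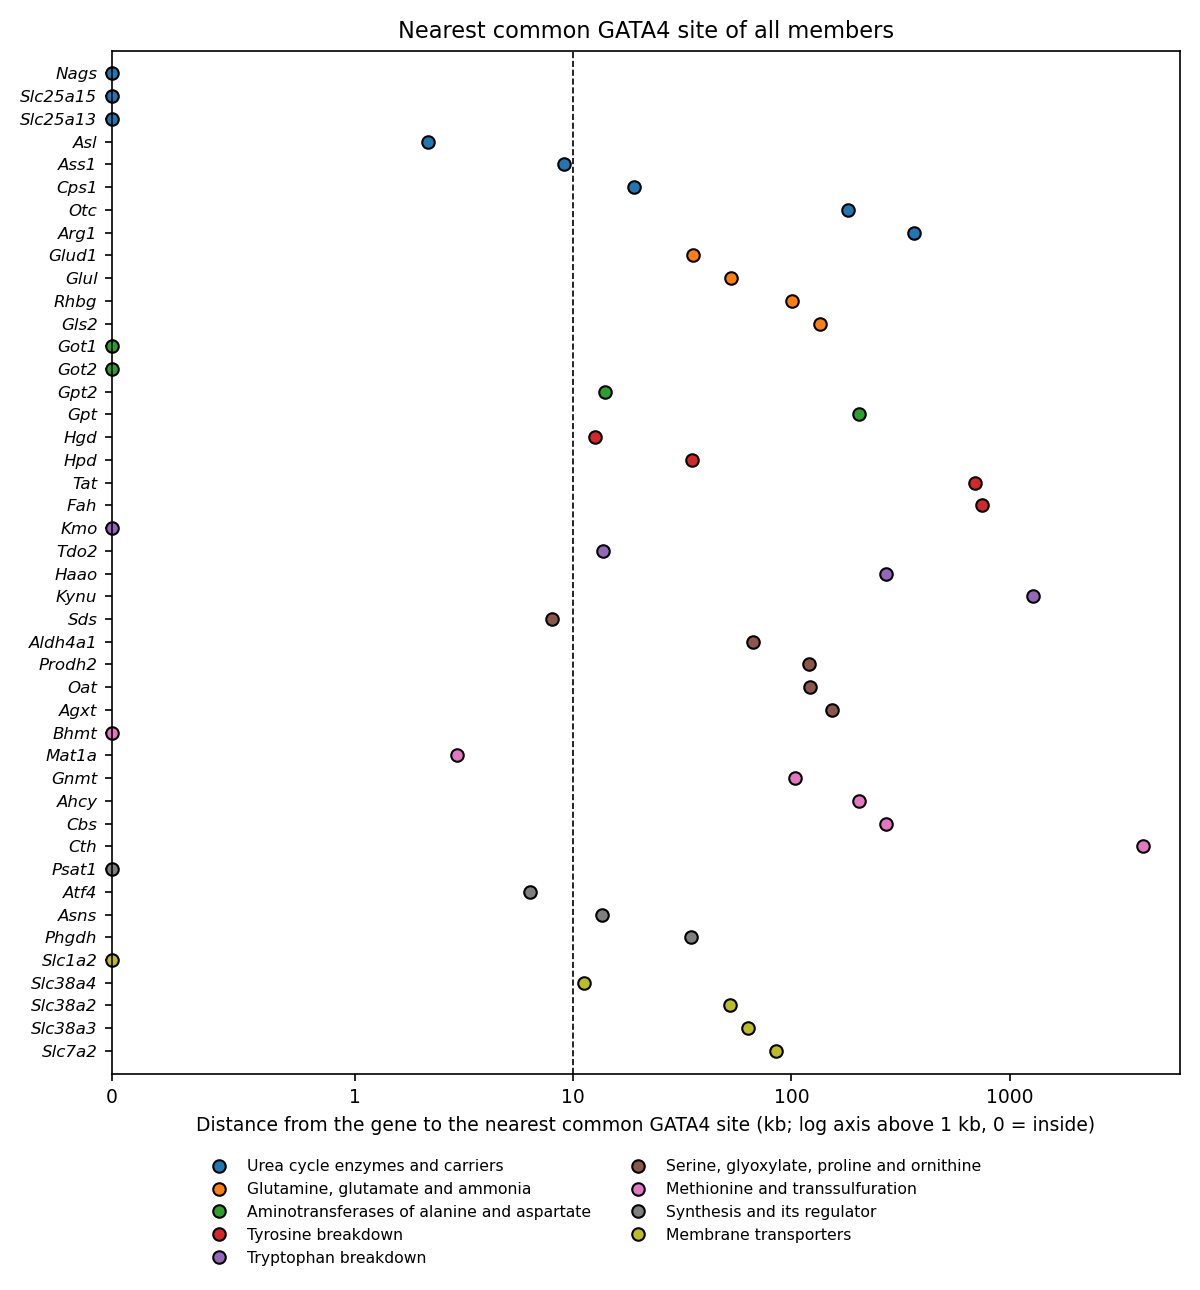
Distance from each of the 44 genes to its nearest common OS (x axis, kb, logarithmic above 1 kb, 0 for an OS inside the gene), coloured by role group, with a dashed line at 10 kb. Of the 30 genes to the right of the line, 5 lie between 10 and 15 kb and 16 beyond 100 kb.

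Close to the limit of 10 kb, Ass1 (9088 bp) and Sds (8003 bp) were the members just inside it. Just outside lay Slc38a4 (11200 bp), Hgd (12626 bp), Asns (13551 bp), Tdo2 (13649 bp) and Gpt2 (13961 bp). Between 10 and 50 kb, 20 further OS lay at 14 members, 9 of which had none within 10 kb, and a member start was the nearest for 8 of the 20. Those 8 included OS 88 (chr13:94418781-94419043) and OS 1545, which lay 10996 and 15531 bp upstream of Bhmt with 2 WGATAR each. At Cps1 they were OS 872 and OS 2892, the latter 36880 bp beyond the gene, and each held 1 WGATAR. The others were at Slc25a13, Gpt2, Asns and Slc38a4. No share of other genes for the stretch from 10 to 50 kb stands beside these counts. Within 50 kb, 52.3% of members had a common OS, beside 27.6% of other genes.

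By the midpoint and the longest protein-coding transcript of the member, 8 of the 18 OS lay in introns, 7 upstream, 1 downstream (OS 2214, in exon 1 of Tmem101), 1 in an exon and 1 elsewhere in the gene span. Over its whole width, an OS overlapped an exon in 5 of 18 cases. The nearest protein-coding start was that of the member for 14 of 18, while 7 were within 10 kb of another gene and 3 were inside one. No shares of all common OS stand beside these counts of place, exon overlap and neighbours. They therefore describe the 18 OS and do not set them apart from other OS. Within 1 kb of a start of the member were 4 of 18 OS (22.2%). Counting a start of any protein-coding gene to which the OS was assigned, which adds OS 2214 at the Tmem101 start, 5 of 18 lay within 1 kb (27.8%), beside 22.9% of all common OS assigned to protein-coding genes.

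Of the 18 OS, 14 held WGATAR (77.8%, with a 95% interval by Wilson's method of 54.8 to 91.0 for counting error only), beside 82.9% of all common OS. The OS without it were those of Asl and Psat1, OS 22 of Got1 and OS 2214 of Nags, and each of them had a GATA core. A GATA core was present in all 18 OS (100%, beside 93.4% of all common OS). Exactly 2 WGATAR were present in 7 OS (38.9%, beside 24.9%), and 3 or more in 0 (beside 9.75%). Within 1 kb of a start of any assigned gene 2 of 5 OS held WGATAR (40.0%, beside 74.1% of all such OS), and farther away 12 of 13 did (92.3%, beside 84.9%). The WGATAR nearest to the midpoint lay at a median distance of 12 bp (2 to 55), beside 18 bp for all common OS with the motif.

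**Figure D4:**
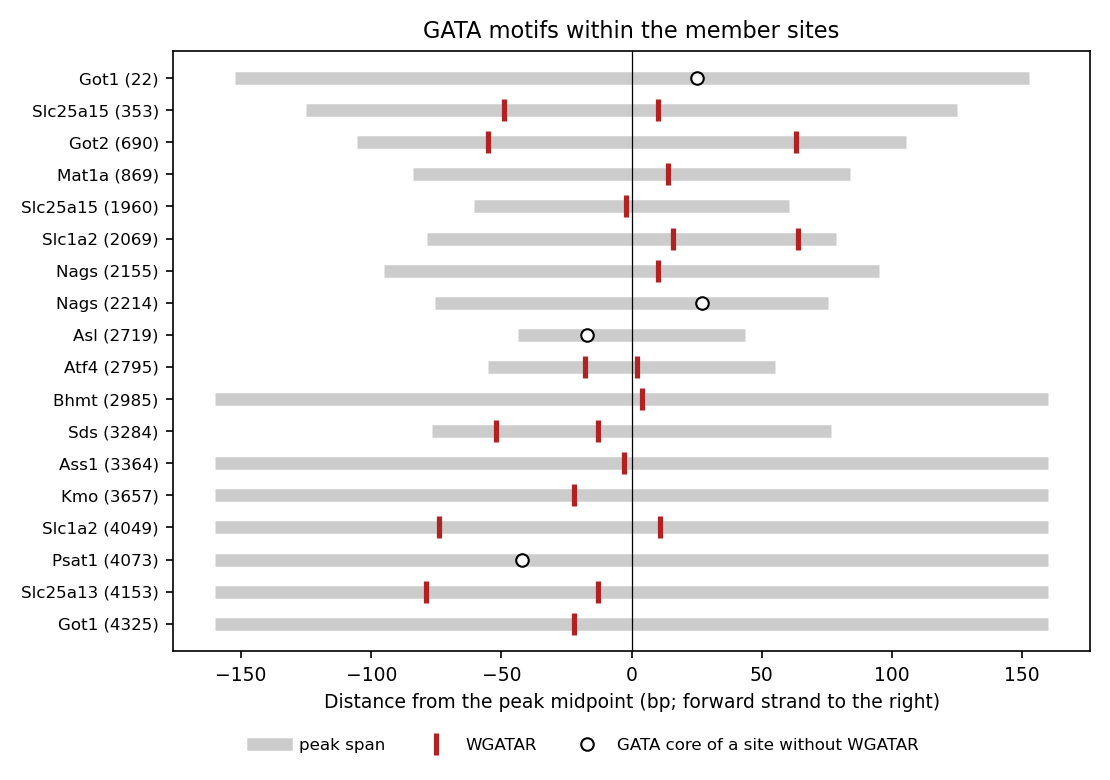
GATA motifs in the 18 member OS (rows, list number in brackets, ordered by number), by distance from the peak midpoint in bp along the forward strand. Grey bars are peak spans, red ticks WGATAR and open circles the GATA core of the 4 OS without WGATAR; the motif nearest to the midpoint lies at most 55 bp away in the OS that hold WGATAR.

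The list numbers of the 18 OS ran from 22 to 4325 with a median of 2757, beside a median of 2205 for all common OS. Divided into 4 equal parts, the list held 4, 3, 5 and 6 of them in turn. In the MACS2 list the median number was 2640 (25 to 4884), beside 2195. Peak width had a median of 230.5 bp (87 to 320), beside 190 bp, and 7 OS were 320 bp wide. GC content had a median of 50.4%, beside 49.4%.

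**Figure D5:**
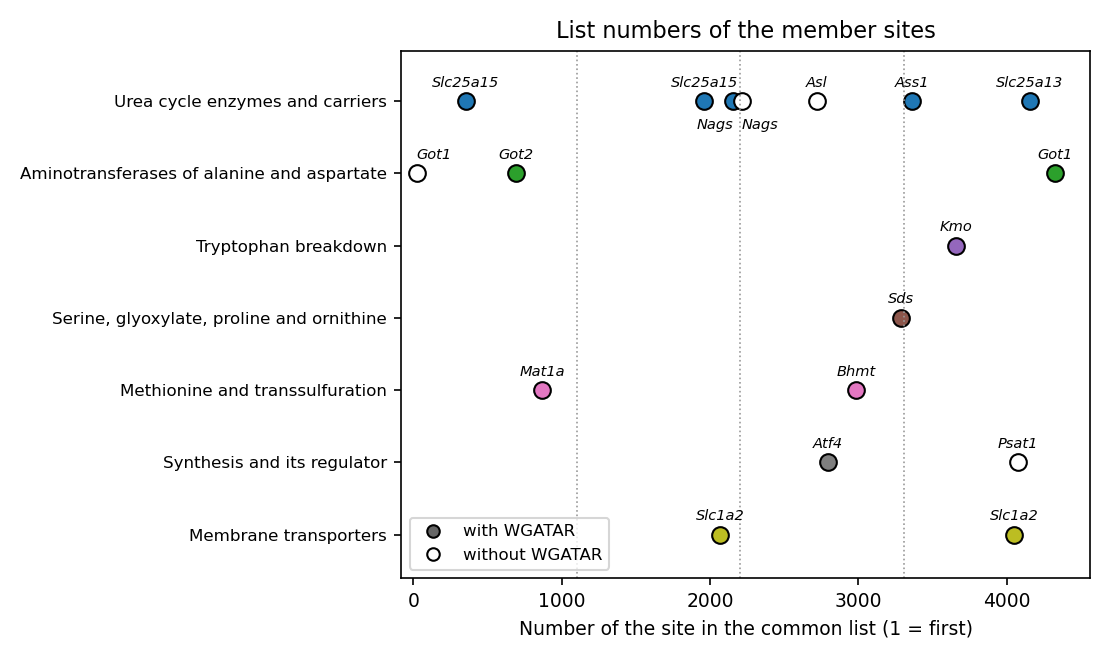
Number of each member OS in the common list (x axis, 1 is first) by role group (y axis), with filled circles for OS with WGATAR, open circles for OS without it and dotted lines that divide the list into 4 equal parts. Got1 has both the first (22) and the last (4325) of the 18.

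A further 63 genes of amino acid metabolism outside the 44 were counted in the same way, and 18 (28.6%) had a common OS, beside the same 13.6%. Genes that share an OS were each counted, in this list as in the background. Bhmt2, the paralogue of Bhmt, took OS 88 and OS 1545, to which the Bhmt start was nearest. Slc25a22, a mitochondrial glutamate carrier, and Gamt, of creatine synthesis, also had 2 OS each. The first of these by number had the start of another gene as its nearest, Pddc1 for OS 891 at Slc25a22 and Dazap1 for OS 1081 at Gamt. Hal and Amdhd1, of histidine breakdown, shared OS 427 in an exon of Hal. Pcca (OS 579), Gclm (OS 694), Gldc (OS 829) and Hibadh (OS 1642) had theirs in introns, and OS 1163 lay downstream of the amino acid transporter Slc7a5. Sdsl shared OS 3284 with Sds.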

How the data were processed

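GATA4 ChIP-seq of whole liver was analysed from peak lists. The files hold no read counts, so the depth behind a peak is unknown here. Per the submitters' processing notes and the methods, the authors aligned reads with Bowtie 0.12.7 to mm9 and kept those with a unique position. Peaks were called against merged input by MACS2 2.0.10 and by an altered SPP, with thresholds set by the reproducibility of peak ranks over replicates. SPP peaks that met a MACS2 peak by bedtools 2.16.1 form the common list, in SPP coordinates. The deposited files give positions, a peak number and a score, and the deposited score is a display value of 1000 in all peaks.

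Genes came from GENCODE M1 on NCBI Build 37, which is mm9, and all 44 members matched by symbol. The transferrin marker is named Trf there. A peak belonged to each protein-coding gene with its midpoint in the gene span or within 10 kb. WGATAR was matched exactly on both strands, as were TTGCNNAA for C/EBP, CAAAGTCCA for HNF4, a palindromic HNF1 motif, and TGTTTAC or its variant TATTTAC for forkhead factors. No test was run, since 1 merged sample gives no replicate error. Alternatives changed the window, the transcript, the assignment, the peak list, the part of it used, the sequence scanned and the distance to a start. Python 3.11.15, numpy 2.4.6, scipy 1.17.1, pysam 0.24.0 and matplotlib 3.10.9 were used, and the counting and motif steps were tested on simulated data.

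The members and lists were chosen with earlier results of these data known. All members were to be accounted for: those with a common OS by their values, those with only an SPP or MACS2 peak by that peak, and the rest by the distance to the nearest common OS. OS within 1 kb of a member start and the first by number in each role group were to be described singly, and their sequences shown where they held WGATAR and met no exon. Of the other amino acid genes, the 10 with the most OS, then the lowest number, were to be named, and Sdsl is named beside them as a neighbour. The sequences without WGATAR (Got1, Psat1) were added after their values were seen. So were those of 30 bases beside an exon (Nags, Otc) or overlapping one (Bhmt), and those of peaks of a single caller (Otc, Hpd, Slc7a2).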

Additional observations from a re-analysis of the deposited data

Results flagged for a closer look

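Members without a common OS that had a peak in the SPP or MACS2 list were looked at again, since these peaks lie outside the main count. Otc had 2 such peaks, both of MACS2. Glul had 1 and Hpd had 1, also of MACS2, and Tat had 1 and Slc7a2 had 1, of SPP. No values of the input sample were in the files used, so no control level stands beside these peaks.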

How the results depend on the processing

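Of 42 alternative values, 32 stayed close to the reported one (counts within 1.5 times, shares within the Wilson interval, medians within the interquartile range) and 10 moved. Within these limits, the other amino acid genes ranged from 13 (5 kb window) to 26 (50 kb window). The 13 were 20.6%, beside 11.3% of protein-coding genes other than the members, and the 26 were 41.3%, beside 27.6%. The share of OS within 1 kb of a member start reached 33.3% with the MACS2 list. With the start of any assigned gene, an alternative added after seeing the data, the share was 27.8%. With the gene span only, 9 members had a common OS (20.5%, beside 7.65% of other genes) and 10 OS lay at members. In that setting 11 of the other amino acid genes were occupied (17.5%, beside the same 7.65%), and 9 members had an SPP peak (20.5%, beside 8.24%). With a 50 kb window, 23 members (52.3%, beside 27.6%) and 38 OS were counted. In the first part of the list, up to its middle by number, 6 members (13.6%, beside 7.21%) and 7 OS remained in the count. Of the other amino acid genes 11 remained (17.5%, beside the same 7.21%). With WGATA or GATAR as the motif, the share of OS with a match was 100%, beside 92.9% of all common OS. A background of genes with a protein-coding transcript, also added after seeing the data, left 13.6% of other genes occupied. No paired analysis was possible because each group has 1 sample, and no replicate could be left out since the replicates are merged. The files hold no read counts, so the coverage at a gene with no called OS is not known here.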

Other observations

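WGATAR itself was common around the members. The merged windows of the 44 genes held 5252 matches, of which 21 lay in a common OS. Members with a common OS had a median of 17.5 WGATAR per 10 kb of window (11.7 to 24.2), and members without one had 20.9 (11.2 to 39.2). From 250 bp before to 50 bp after the gene start, 15 of 44 members (34.1%) held WGATAR, beside 27.5% of other protein-coding genes, and Cps1, Otc, Tat and Tdo2 were among the 15.

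A forkhead motif (TGTTTAC or TATTTAC) was present in 3 of the 18 OS (16.7%, beside 9.03% of all common OS), namely OS 4153 of Slc25a13, OS 3284 of Sds and OS 2069 of Slc1a2. The C/EBP motif TTGCNNAA was present in 1, OS 690 of Got2 (5.56%, beside 12.7%). CAAAGTCCA of HNF4 was in 0 (beside 1.16%) and the HNF1 motif in 0 (beside 0.0227%).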
